A study of Mus musculus with 6 samples.

Results

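The mitochondrial ribosomal protein genes are the nuclear genes whose symbols begin with Mrpl (large subunit) or Mrps (small subunit) followed by a number. A probe set, the group of short oligonucleotides that reports one transcript on the array, was counted as a member when the array annotation gave it exactly one symbol of this form. The rule found 127 probe sets of 75 genes among 21646 tested probe sets, in which 11429 genes had a probe set with 1 symbol. The large subunit was covered by 82 probe sets of 46 genes and the small subunit by 45 probe sets of 29 genes. All 75 genes matched the RefSeq gene table by gene ID. A further 3 probe sets named Mrpl30, Mrps34 or Mrpl53 together with a second gene and were set aside.

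Expression was compared between mouse oocytes that had completed meiotic maturation and fully grown oocytes that had not begun it, with 3 samples of 300 oocytes at each stage. Metaphase II (MII) oocytes were ovulated oocytes with a visible first polar body. They were taken from the oviducts of mice aged 22 to 24 days that had received 5 IU of equine chorionic gonadotropin (eCG) 44 to 46 h before 5 IU of human chorionic gonadotropin (hCG), 14 h after the hCG. Cumulus cells were removed from them with 1 mg/ml hyaluronidase. Germinal vesicle (GV) oocytes, arrested in meiotic prophase with an intact nucleus, came from large antral follicles of mice of the same age 44 to 46 h after 5 IU of eCG, without hCG. Their cumulus cells were stripped by pipetting, in medium with 5 µM milrinone, an inhibitor of the oocyte phosphodiesterase PDE3 that holds oocytes in prophase arrest. The labels call the medium for MII oocytes the same as that for GV oocytes, and do not name milrinone for them. Strain, genotype and the number of mice behind each sample are not given in the labels. Each sample supplied 10 ng of total RNA to a 2-round amplification that used a mixed primer set instead of oligo(dT) and random hexamer primers, and was hybridised to 1 array. The number of arrays limits the precision of every value. Since every sample supplied the same mass of RNA, a signal follows a transcript's share of that RNA and not its amount per oocyte. A lower signal in such a pool also cannot tell less of the transcript in each oocyte from fewer oocytes carrying it.

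Mitochondria keep their own ribosome, which translates the few proteins encoded by mitochondrial DNA, all of them parts of the respiratory chain and the ATP synthase. Its ribosomal RNAs are transcribed inside the organelle, while all of its proteins are encoded in the nucleus, made in the cytosol and imported. Some of these proteins descend from the bacterial ribosome, and others were added in the mitochondrial lineage. The oocyte holds more mitochondria than almost any other cell and passes them to the embryo. Transcription is largely silent from the fully grown oocyte through MII, so the arrays compare the composition of stored maternal RNA.

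The promoters of 4 members show what these genes look like at their start sites: Mrpl22 and Mrps18c fell steeply, Mrpl3 was not called and Mrpl40 rose. The sequences are from RefSeq on GRCm38.p6, each covering the 150 bases before the annotated start, 5′ to 3′ on the strand of the gene. Mrpl22 lies at chr11:58171514-58171663 (plus strand), Mrps18c at chr5:100798609-100798758 (plus strand), Mrpl3 at chr9:105053118-105053267 (plus strand) and Mrpl40 at chr16:18876638-18876787 (minus strand). Capitals mark matches to motifs of factors known to act on nuclear genes for mitochondrial proteins.
Mrpl22: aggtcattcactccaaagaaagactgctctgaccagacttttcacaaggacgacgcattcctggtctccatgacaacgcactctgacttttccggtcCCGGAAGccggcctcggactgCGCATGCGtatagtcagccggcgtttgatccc
Mrps18c: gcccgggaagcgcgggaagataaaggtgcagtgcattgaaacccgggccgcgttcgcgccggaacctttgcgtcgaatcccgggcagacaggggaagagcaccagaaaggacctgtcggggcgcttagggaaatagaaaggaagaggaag
Mrpl3: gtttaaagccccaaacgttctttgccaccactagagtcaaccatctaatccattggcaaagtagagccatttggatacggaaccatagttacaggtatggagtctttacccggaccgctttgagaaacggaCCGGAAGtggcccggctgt
Mrpl40: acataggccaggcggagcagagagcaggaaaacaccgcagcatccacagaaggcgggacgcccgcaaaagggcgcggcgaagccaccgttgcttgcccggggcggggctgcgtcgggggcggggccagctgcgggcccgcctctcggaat
In Mrpl22 the capitals mark an ETS motif (CCGGAAG), the site type bound by NRF2/GABP, and the NRF1 core (GCATGCG), which matches on both strands at overlapping positions. In Mrpl3 they mark an ETS motif. The 150 bases of Mrps18c and Mrpl40 held neither of these in full, nor the YY1 motif AAGATGG. Mrps18c had an ETS match on the opposite strand at -156 from the start, inside the longer window described next. Mrpl40 had no match in that window.

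The same 3 motifs were searched on both strands of the 300-base windows (250 bases before to 50 after the start) that the RefSeq table gave for 66 of the member genes, 72 windows in all. The ETS motif was present in 25 member windows (34.7%), against 8.86% of all 32851 windows in the table. The NRF1 core was present in 8 member windows (11.1%), against 3.58% of all windows. The YY1 motif was present in 13 member windows (18.1%), against 6.34% of all windows. Member promoters carried each motif at a higher share than promoters in general, in both subunits for the ETS and YY1 motifs (14 and 7 of 45 large-subunit windows, 11 and 6 of 27 small-subunit windows). The NRF1 core was in 7 large-subunit windows and 1 small-subunit window. Among members with a window, the median log2 difference between MII and GV was -2.04 with the ETS motif and -1.56 without it, -2.54 with the NRF1 core and -1.69 without it, and -1.70 with the YY1 motif and -1.72 without it. A match is a description of these letters, and was not tested as a binding site.

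Transcripts of the mitochondrial ribosome were lower in MII oocytes than in GV oocytes across both subunits. With 1 probe set per gene (the one with the highest mean over the 6 arrays), 66 of the 75 genes fell, 2 rose and 7 were not called, at an adjusted p under 0.05 in limma with Benjamini-Hochberg adjustment over all probe sets. Of all 11429 genes, 37.8% were called lower, 10.5% higher and 51.7% neither, while 88.0% of the members were lower. The median difference, MII minus GV on the log2 scale, was -1.57 over the members (interquartile range -2.62 to -0.81), against -0.20 over all genes. Falls of at least 2-fold were called for 52 members, of at least 4-fold for 30 and of at least 8-fold for 13, beside 23.1%, 9.84% and 3.40% of all genes. In the order of all genes from the steepest fall upward, the median member stood at percentile 14.5.

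**Figure D1:**
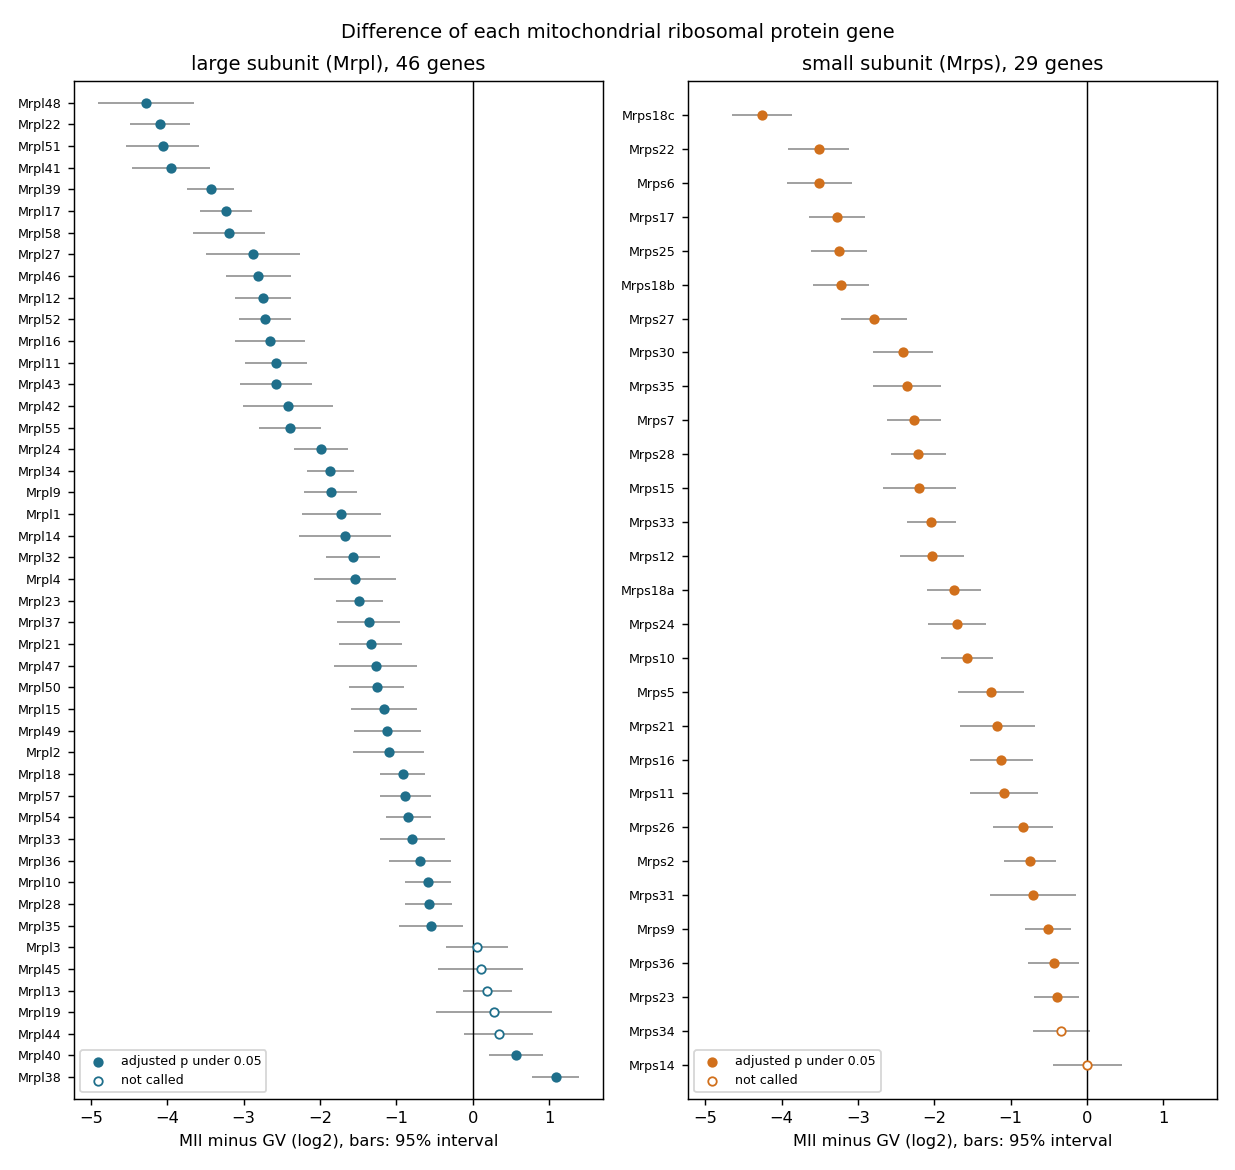
Log2 difference (MII minus GV) of each of the 75 genes, with its 95% interval, for the large subunit (left, 46 genes) and the small subunit (right, 29 genes); filled points have an adjusted p under 0.05 and open points were not called. Points run from -4.28 for Mrpl48 to 1.09 for Mrpl38, and 2 of the filled points, Mrpl40 and Mrpl38, lie right of 0 on the deposited scale. With the arrays' hybridization or poly-A controls made equal neither gene is called, and with poly-A controls Mrpl40 lies at -0.31.

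The values of the 2 stages were clearly apart for most members. In 67 genes every MII value was below every GV value, an arrangement seen in 43.3% of all genes, and in 2 genes every MII value was above, so that 69 genes had no overlap, beside 57.9% of all genes. Over all 127 member probe sets, 93 were lower, 2 higher and 32 not called (73.2% lower, median -1.21), beside 34.1% lower, 10.9% higher and 55.0% not called of all probe sets. Without each array in turn, between 62 and 64 of the 66 genes stayed lower, and 62 of them did so in all 6 of those fits. The calls that could be lost in this way were those of Mrps31, Mrps36, Mrps23 and Mrpl35, all with falls of less than 2-fold.

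The stages also differed in the scale of the arrays, which bears on every direction given here. The median over all tested probe sets was 5.47 to 5.49 in the MII arrays and 6.10 to 6.12 in the GV arrays. Making the array medians equal shifted all differences by 0.62. The members then numbered 50 lower and 8 higher, with a median of -0.95, while the median over all genes moved to 0.42, with 22.5% of all genes called lower and 52.2% higher. Quantile normalization, with a shift of 0.34, gave 50 lower and 8 higher, at a member median of -1.04 and an all-gene median of 0.17, with 24.5% of all genes lower and 34.5% higher. Making the hybridization controls equal shifted the differences by -0.40 and gave 64 lower and 0 higher (member median -1.97, all genes -0.61), beside 36.7% lower and 0.437% higher of all genes. That shift depends on 1 array: the mean of the hybridization controls was 9.86, 9.66 and 9.42 on the MII arrays, against 9.82, 8.97 and 8.94 on the GV arrays. Without GV array 1, a fit added after the data were seen, the shift was -0.70, and 69 members were lower and 0 higher (member median -2.26), beside 74.4% lower and 0.639% higher of all genes. Making the poly-A controls equal shifted them by -0.87 and gave 73 lower and 0 higher (member median -2.44, all genes -1.07), beside 86.5% lower and 0.271% higher of all genes. Setting the arrays to controls adds the same offset to every probe set of an array. Differences between the offsets of a stage's arrays thus entered the variance of every probe set. In limma the variances of all probe sets were then drawn to nearly a common value, as if each had measured this shared error independently. Calls on these scales therefore do not allow for how poorly so few arrays fix the offsets. No member called lower on the deposited scale was called higher on any of the other 4 scales, and 47 of the 66, 29 of the large and 18 of the small subunit, were called lower on all 5.

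**Figure D2:**
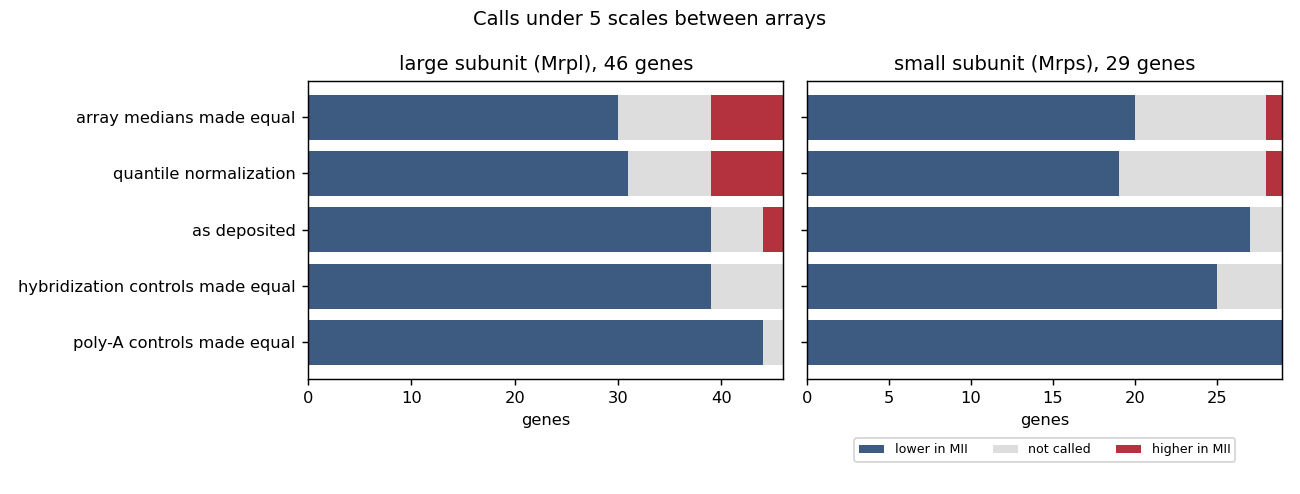
Number of genes (horizontal axis) called lower in MII (blue), not called (grey) and higher in MII (red) in the large subunit (left, 46 genes) and the small subunit (right, 29 genes), on the deposited scale and 4 others. The lower genes number 30, 31, 39, 39 and 44 in the large and 20, 19, 27, 25 and 29 in the small subunit, in the order of the rows; red appears in 3 rows for the large and in 2 rows for the small subunit.

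In the large subunit, whose proteins surround the peptidyl transferase centre and the exit tunnel, 39 of 46 genes fell, 2 rose and 5 were not called, a share lower of 84.8%. In the small subunit, which binds the messenger RNA and reads the codons, 27 of 29 genes fell, 0 rose and 2 were not called, a share of 93.1%. The median difference was -1.51 for the large subunit (interquartile range -2.64 to -0.80) and -1.74 for the small subunit (interquartile range -2.41 to -0.84). The median value of the large-subunit genes was 5.59, 5.41 and 5.52 on the 3 MII arrays, against 7.62, 7.73 and 7.41 on the GV arrays. For the small subunit it was 5.44, 5.63 and 5.69 on the MII arrays, against 7.35, 7.55 and 7.31 on the GV arrays. The ranges of differences overlapped almost throughout, and no test was made over genes, which are not replicates. At the level of probe sets 56 of 82 in the large subunit and 37 of 45 in the small subunit were lower, and both subunits had a median of -1.21.

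**Figure D3:**
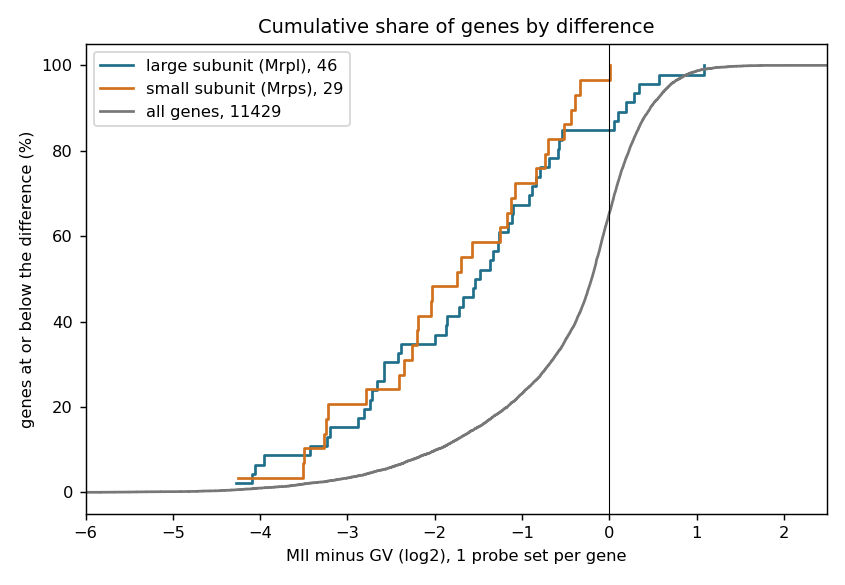
Cumulative share of genes (vertical axis, percent) at or below each log2 difference (horizontal axis, MII minus GV, 1 probe set per gene, deposited scale) for the large subunit (46 genes), the small subunit (29 genes) and all 11429 genes. The large and small subunit curves cross each other repeatedly, with medians of -1.51 and -1.74, and both lie left of the curve of all genes, whose median is -0.20 on the deposited scale.

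Symbols do not always name the subunit in which a protein sits. In structures of the mammalian mitochondrial ribosome, the products of Mrps18a and Mrps30 are in the large subunit, and the Mrps36 product is now assigned to the oxoglutarate dehydrogenase complex. Counted in that way, 41 of 48 large-subunit genes (median -1.55) and 24 of 26 small-subunit genes (median -1.86) were lower. Mrps30 itself was at -2.41 ± 0.18 and Mrps36 at -0.44 ± 0.15 (SE, 3 arrays per stage).

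In the large subunit, 7 genes fell by at least 8-fold, in the order Mrpl48, Mrpl22, Mrpl51, Mrpl41, Mrpl39, Mrpl17 and Mrpl58. A further 9, Mrpl27, Mrpl46, Mrpl12, Mrpl52, Mrpl16, Mrpl11, Mrpl43, Mrpl42 and Mrpl55, fell by 4-fold to 8-fold. The next 15 fell by 2-fold to 4-fold, from Mrpl24 at -1.99 to Mrpl2 at -1.10, and included Mrpl34, Mrpl9, Mrpl1, Mrpl14, Mrpl32, Mrpl4, Mrpl23, Mrpl37, Mrpl21, Mrpl47, Mrpl50, Mrpl15 and Mrpl49. Another 8, Mrpl18, Mrpl57, Mrpl54, Mrpl33, Mrpl36, Mrpl10, Mrpl28 and Mrpl35, fell by less than 2-fold. The place of Mrpl28 depended on its probe set: the one used, with a mean of 6.14, was at -0.58, while others almost as bright (6.07 and 5.94) were called lower at -2.23 and -2.42. Places of further genes, in both subunits, depended on this choice too. For example, Mrpl15 (-1.16) and Mrps23 (-0.40) had other probe sets called lower at -2.64 and -1.50. Mrpl17 (-3.23) and Mrpl58 (-3.20) had second probe sets at 0.01 and -0.16, not called. In the small subunit, 6 genes fell by at least 8-fold, in the order Mrps18c, Mrps22, Mrps6, Mrps17, Mrps25 and Mrps18b. Mrps27, Mrps30, Mrps35, Mrps7, Mrps28, Mrps15, Mrps33 and Mrps12 fell by 4-fold to 8-fold. Falls of 2-fold to 4-fold were called for Mrps18a, Mrps24, Mrps10, Mrps5, Mrps21, Mrps16 and Mrps11, and smaller ones for Mrps26, Mrps2, Mrps31, Mrps9, Mrps36 and Mrps23.

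The steepest fall was that of Mrpl48, a mitochondrion-specific protein of the central protuberance, the crest of the large subunit that faces the small one. Its values were 5.35, 5.06 and 5.62 in MII oocytes, against 9.06, 10.29 and 9.54 in GV oocytes, all on the log2 scale. All 3 MII values were far below the lowest GV value, and the difference was -4.28 ± 0.28 (SE; 19.4-fold lower, limma adjusted p = 8.4e-07). A second Mrpl48 probe set, of a type that can cross-hybridise, was at -4.62, and a dim one was at -0.30 and not called. The RefSeq table also lists a pseudogene, Mrpl48-ps, and signal from it was not told apart from the gene's. Pseudogenes of Mrpl23, Mrpl27 and Mrps36 are listed too, with the same limit.

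Mrpl22, the counterpart of the bacterial protein L22 that lines the exit tunnel, carries the ETS and NRF1 matches shown above. It was at 5.23, 5.27 and 5.66 in MII oocytes, against 9.21, 9.66 and 9.56 in GV oocytes, without overlap. The difference was -4.09 ± 0.18 (95% interval -4.48 to -3.70, limma adjusted p = 6.3e-08). Mrpl51, a mitochondrion-specific protein, was at 5.15, 4.67 and 4.41 in MII oocytes, against 9.06, 8.86 and 8.49 in GV oocytes, a difference of -4.06 ± 0.21. Here too the stages were apart on this probe set, while a second one designed from the same transcript differed by -0.28 and was not called.

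Mrpl41, also mitochondrion-specific, was at 2.90, 3.12 and 2.69 in MII oocytes, against 6.86, 7.33 and 6.37 in GV oocytes. Its 3 MII values lay near the lower end of the arrays' range, which began at 1.85, and the difference was -3.95 ± 0.23, with -2.45 for its second probe set, also called lower. Mrpl39, which has a domain related to threonyl-tRNA synthetases, was at 6.97, 7.04 and 6.76 in MII oocytes, against 10.40, 10.38 and 10.29 in GV oocytes. The spread within each stage was small (SD 0.14 in MII and 0.063 in GV), the difference was -3.43 ± 0.14, and its second probe set fell by 3.19.

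In the small subunit, Mrps18c had the steepest fall. Its values were 4.61, 4.22 and 4.44 in MII oocytes, against 8.46, 8.98 and 8.58 in GV oocytes, a difference of -4.25 ± 0.18 (19.1-fold lower, limma adjusted p = 5.2e-08) on its only probe set. Mrps22, a mitochondrion-specific protein whose human gene is mutated in inherited respiratory chain disease, was at 6.93, 6.34 and 6.66 in MII oocytes, against 9.97, 10.37 and 10.14 in GV oocytes. The stages did not overlap, and Mrps22 differed by -3.51 ± 0.18. Mrps6, the counterpart of bacterial S6, was at 4.51, 4.31 and 4.74 in MII oocytes, against 8.38, 7.93 and 7.75 in GV oocytes, a difference of -3.50 ± 0.19, with -2.01 on its second probe set.

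**Figure D4:**
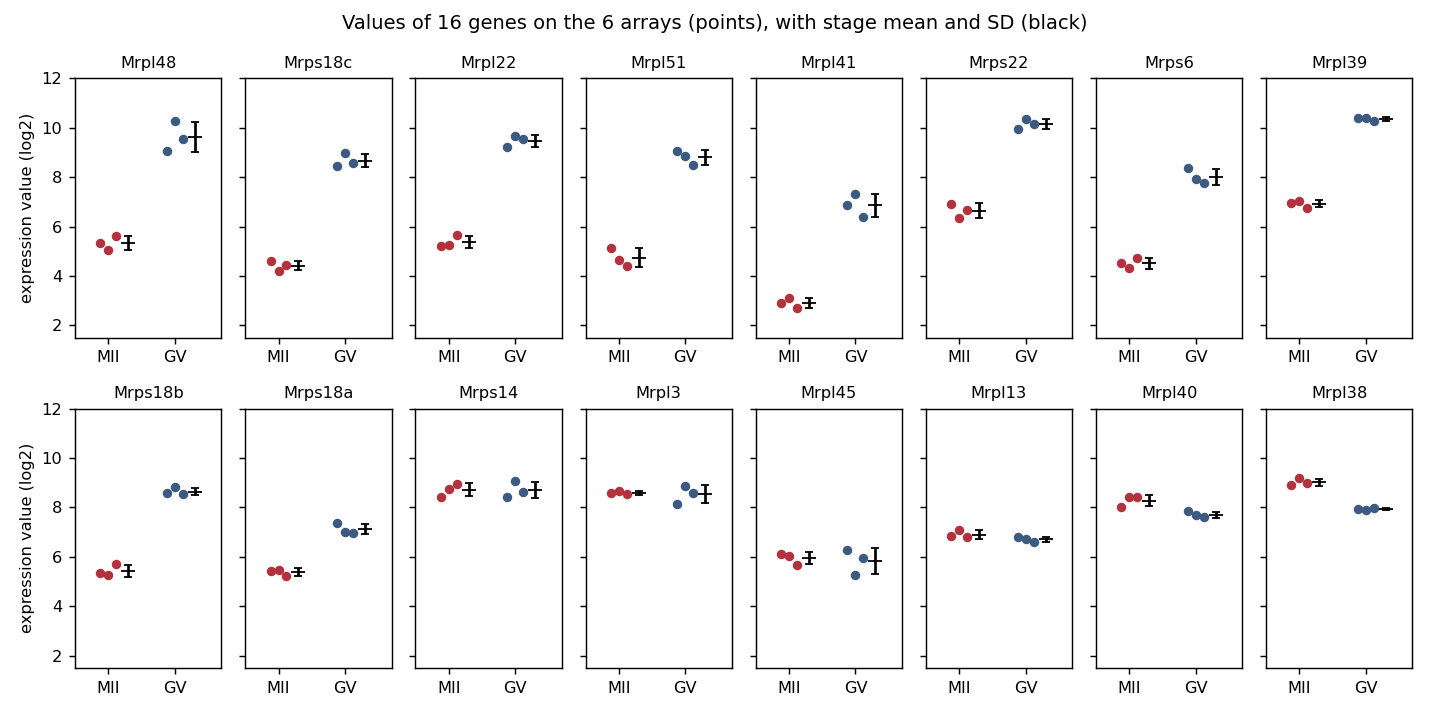
Log2 expression values (vertical axis, deposited scale) of 16 named genes on each of the 3 MII arrays (red) and 3 GV arrays (blue), with the mean and SD of each stage in black. In the upper row the MII points lie below the GV points for all 8 genes, as for Mrps18b and Mrps18a; the points of Mrps14, Mrpl3 and Mrpl45 overlap, and all MII points of Mrpl40 and Mrpl38 lie above their GV points on this scale.

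The 3 mammalian paralogs of bacterial S18, Mrps18a, Mrps18b and Mrps18c, all fell, by different amounts. Mrps18c occupies the bacterial S18 site, while Mrps18b sits elsewhere in the small subunit and Mrps18a in the large one. Mrps18b was at 5.33, 5.25 and 5.69 in MII oocytes, against 8.59, 8.82 and 8.52 in GV oocytes, a difference of -3.22 ± 0.16. Mrps18a was at 5.44, 5.48 and 5.21 in MII oocytes, against 7.35, 7.02 and 6.97 in GV oocytes, a difference of -1.74 ± 0.16. The 95% interval of Mrps18a, -2.09 to -1.39, did not reach those of Mrps18b (-3.58 to -2.86) or Mrps18c (-4.65 to -3.86), which in turn did not meet each other. Each paralog had 1 probe set, and the differences between paralogs were not tested directly.

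Mrpl38 rose, the larger of the 2 rises in the group. It belongs to the phosphatidylethanolamine-binding protein family and sits in the central protuberance, as Mrpl48 does. Its values were 8.90, 9.18 and 8.98 in MII oocytes, against 7.92, 7.89 and 7.99 in GV oocytes, with every MII value above every GV value. The difference was 1.09 ± 0.14 (95% interval 0.78 to 1.40; 2.13-fold higher, limma adjusted p = 9.5e-05). Mrpl38 was measured by a single probe set, of the type (suffix _s_at) whose oligonucleotides can match more than 1 transcript. With hybridization controls made equal it was at 0.68 (adjusted p = 0.15) and with poly-A controls at 0.22 (adjusted p = 0.40), both not called.

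Mrpl40, another central protuberance protein, whose human gene lies in the chromosomal region lost in DiGeorge syndrome, rose by less. It was at 8.004, 8.409 and 8.412 in MII oocytes, against 7.84, 7.67 and 7.61 in GV oocytes. The stages did not overlap, but the lowest MII value stood close to the highest GV value. The difference was 0.57 ± 0.16 (95% interval 0.21 to 0.92, limma adjusted p = 0.015). Without MII array 2 or MII array 3 it was 0.50 with an adjusted p of 0.056 in each case, and without moderation of the variance the adjusted p was also 0.056. With poly-A controls made equal Mrpl40 turned to -0.31 and was not called.

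The 7 genes that were not called divided into those whose probe sets gave one picture and those whose probe sets did not. Mrpl3, which reaches towards the peptidyl transferase centre, was at 8.57, 8.67 and 8.52 in MII oocytes, against 8.14, 8.85 and 8.60 in GV oocytes. The stages overlapped and the difference was 0.06 (95% interval -0.35 to 0.47), with 0.08 and 0.16 on its other probe sets. Mrpl44, which has a ribonuclease III fold, differed by 0.34 (-0.11 to 0.80), and none of its 3 probe sets was called. For Mrpl19, the counterpart of bacterial L19, none of 4 probe sets was called and the interval was wide, -0.47 to 1.03, with MII values of 5.60, 5.98 and 5.48 beside GV values of 6.01, 4.49 and 5.72.

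Mrps14, the counterpart of bacterial S14, had values of 8.43, 8.76 and 8.96 in MII oocytes, against 8.42, 9.08 and 8.63 in GV oocytes. That difference was 0.01 (95% interval -0.44 to 0.46), but a second Mrps14 probe set of the same transcript fell by 1.21. Mrpl13, the counterpart of bacterial L13, was at 0.19 (-0.13 to 0.52) on its brightest probe set, while its other probe sets were called lower at -1.35 and -0.77. Mrpl45, which anchors the mitochondrial ribosome to the inner membrane, was at 6.13, 6.02 and 5.66 in MII oocytes, against 6.28, 5.24 and 5.97 in GV oocytes. It differed by 0.11 with an interval of -0.45 to 0.66 on its only probe set. Mrps34 differed by -0.33 (-0.71 to 0.04) without overlap between stages, and the set-aside probe set that names it beside Nme3 was called lower at -1.37.

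For 6 of the 7 genes not called, all but Mrpl19, the 95% interval lay within 2-fold either way on the deposited scale. With array medians made equal or after quantile normalization, Mrpl3, Mrpl13, Mrpl19, Mrpl44, Mrpl45 and Mrps14 were called higher. With poly-A controls made equal all 7 were called lower, as were 86.5% of all genes. The calls of these genes thus changed with the scale chosen between the stages.

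Members were also divided, by the number in their symbols, into those with a counterpart in the bacterial ribosome and those taken as added in mitochondria. Of 42 genes with a bacterial counterpart, 38 fell, 0 rose and 4 were not called, with a median of -1.55. Of 33 mitochondrion-specific genes, 28 fell, 2 rose and 3 were not called, with a median of -2.04. Both genes that rose on the deposited scale were mitochondrion-specific. Of the genes called higher only with array medians made equal or after quantile normalization, Mrpl3, Mrpl13, Mrpl19 and Mrps14 have a bacterial counterpart, and Mrpl44 and Mrpl45 do not. When Mrps24 and Mrps28, which correspond to bacterial ribosomal proteins, were counted with the bacterial group, a choice made after their values were seen, 40 of 44 (median -1.57) and 26 of 31 (median -2.04) were lower. Within the large subunit 23 of 26 bacterial-type genes (median -1.51) and 16 of 20 mitochondrion-specific genes (median -1.88) fell. Within the small subunit these counts were 15 of 16 (median -1.65) and 12 of 13 (median -2.04). The counts within subunits kept Mrps24 and Mrps28 in the mitochondrion-specific group. Mrpl47 (-1.27, called lower), which also corresponds to a bacterial ribosomal protein, stayed in that group over all members and within the large subunit. The division by number is therefore approximate.

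Mrpl10, Mrpl11 and Mrpl12 make up the stalk that recruits translation factors, and were singled out after their values were seen. Mrpl12 was at 5.08, 4.62 and 4.84 in MII oocytes, against 7.55, 7.79 and 7.43 in GV oocytes, a difference of -2.74 ± 0.17. Mrpl11 differed by -2.58 ± 0.18. Mrpl10 was at 8.17, 8.34 and 8.34 in MII oocytes, against 8.85, 8.98 and 8.77 in GV oocytes, a difference of -0.58 ± 0.14 (95% interval -0.89 to -0.28). The differences between these genes were not tested directly. Mrpl58, a peptidyl-tRNA hydrolase built into the large subunit, fell by 3.20, and Mrpl2, which helps shape the peptidyl transferase centre, by 1.10. Among small-subunit genes Mrps12, a decoding-site protein, fell by 2.03 and Mrps7 by 2.26.

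Falls were called among dim and bright members alike, and on many chromosomes. Split by mean value over the 6 arrays, 22 of the 25 dimmest members (mean 3.45 to 6.02), 24 of the middle 25 (6.05 to 7.03) and 20 of the 25 brightest (7.14 to 10.19) were lower. Their medians were -1.57, -1.74 and -1.27. Over all genes 37.8% were lower. The share among all genes of like brightness is not given here, so these counts describe the members only. The mean is made of the same MII and GV values as the difference, so level and difference are not independent measures. Across the 75 genes, which are not independent replicates, Spearman's rho between mean value and difference was 0.10, and between the length of the gene in the genome and the difference it was -0.017. The members lay on 17 chromosomes, most often on chromosome 11, where 9 of 11 fell (median -2.26), and chromosome 17, where 7 of 8 fell (median -1.33). Shares over all genes of those chromosomes are not given here either.

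Low signal limits what the falls can say at the MII end. In 37 of the 66 genes that fell, the MII mean was under 5.47, the lowest of the MII array medians, and 11 members had a GV mean under 6.10, the lowest of the GV array medians. No background or detection measure was used, so for those genes a fold change describes the deposited values and not a ratio of RNA copies.

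Several probe sets were available for 32 of the genes, and on the deposited scale they often disagreed in size but never in called direction. In 11 genes all probe sets were lower, in 18 some were lower and the others not called, and in 3 none was called. On that scale no gene had probe sets called in opposite directions, and 68 of the 75 genes had at least 1 probe set called lower. With array medians made equal, 30 member probe sets were called higher and 70 lower, and the brightest Mrpl13 probe set was among the higher ones. In 16 of the 18 mixed genes the brightest probe set was the lower one, the exceptions being Mrps14 and Mrpl13. Brightness is the mean over both stages, so a probe set high only in GV oocytes counts as bright and also falls. The brightest Mrpl51 probe set had means of 4.74 in MII and 8.80 in GV oocytes, the other 5.17 and 5.45. By the same mean, 31 of the 93 lower probe sets and 23 of the 32 not called were below the median of all probe sets, at median values of 6.25 and 4.70. Within the mixed genes the median was 6.46 for those called lower and 4.44 for those not called.

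**Figure D5:**
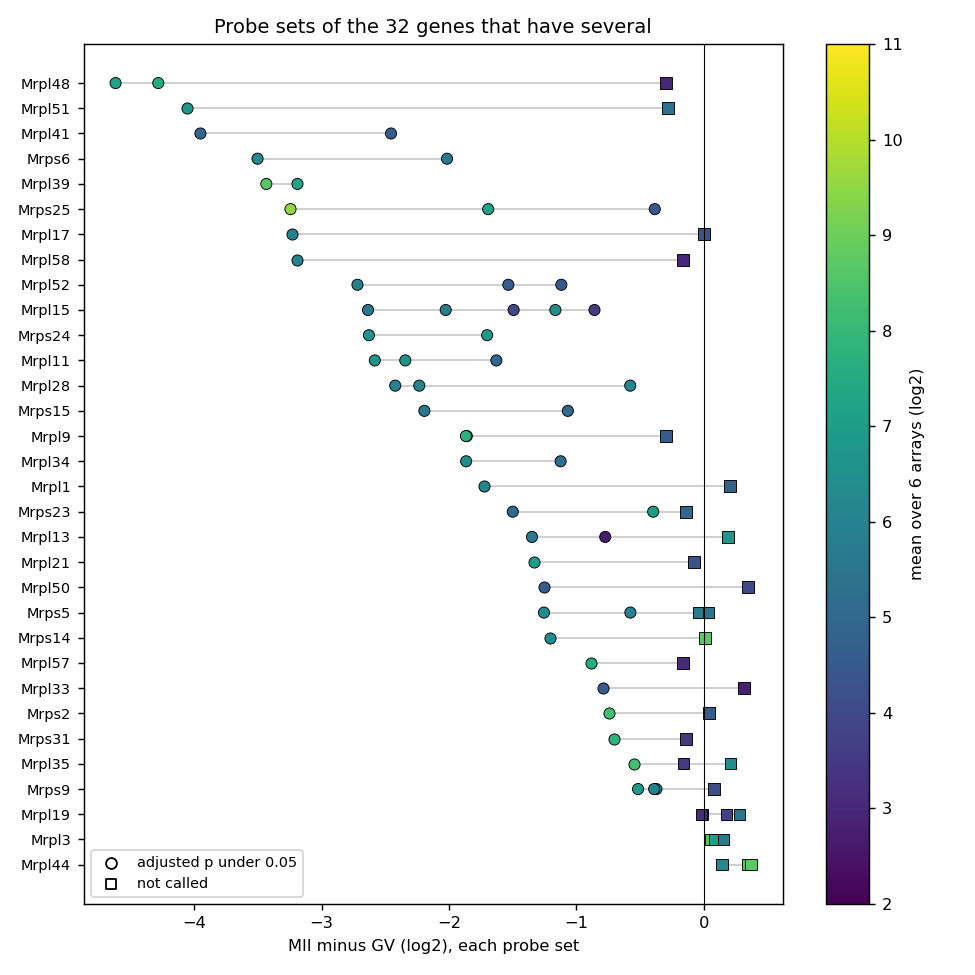
Log2 difference (horizontal axis, MII minus GV, deposited scale) of every probe set of the 32 genes that have several, 1 row per gene; circles have an adjusted p under 0.05, squares were not called, and colour gives the mean value over the 6 arrays. Rows such as Mrpl48 and Mrpl51 run from below -4 to near 0, and no circle lies right of 0 on this scale.

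Probe sets designed from the same transcript accession give the sharpest view of this, in 18 groups. In 6 groups all probe sets were lower, in 9 they were mixed and in 3 none was called. The widest gap was that of Mrpl51, 3.78 on the log2 scale between -4.06 and -0.28. For Mrps25, a mitochondrion-specific small-subunit protein, 3 probe sets from the same accession were all called lower, at -3.24, -1.69 and -0.38. Gaps of 1.92, 1.61, 1.60 and 1.54 followed for Mrpl1, Mrpl50, Mrpl52 and Mrpl13. By probe set type, 12 of 14 with the suffix _x_at (85.7%, against 46.7% of all such probe sets), 23 of 28 with _a_at (82.1% against 40.0%), 6 of 8 with _s_at (75.0% against 42.9%) and 52 of 77 with _at (67.5% against 31.0%) were lower.

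Other genes of mitochondrial translation were read from lists compiled from general knowledge. Of 4 measured ribosome proteins outside the naming rule, 3 fell (median -1.34). Gadd45gip1, a large-subunit protein, was at 5.79, 6.03 and 6.24 in MII oocytes, against 10.61, 10.74 and 10.24 in GV oocytes, a difference of -4.51 ± 0.18, a steeper fall than that of Mrpl48. Dap3, a GTP-binding protein of the small subunit, fell by 1.56. Of 14 measured translation factors of mitochondria, 7 fell, 2 rose and 5 were not called (median -0.95). Mtres1 at -3.64 and Lrpprc, which stabilises mitochondrial messenger RNAs, at -3.53 fell most, while the GTPase gene Guf1 rose by 0.86 and the elongation factor gene Gfm1 by 0.61.

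Of 22 measured assembly factors and ribosomal RNA modifying enzymes, 8 fell, 3 rose and 11 were not called (median -0.26), beside 37.8% of all genes called lower. Malsu1, an assembly factor of the large subunit, was at -3.48, and Mterf4 at -2.86. Its partner Nsun4, an RNA methyltransferase that acts with Mterf4 in ribosome assembly, was at 10.65, 10.10 and 10.09 in MII oocytes, against 9.15, 9.11 and 9.22 in GV oocytes, a rise of 1.12 ± 0.17. Rpusd4, a pseudouridine synthase, rose by 0.62. Of 11 measured genes of mitochondrial transcription and DNA maintenance, 8 fell and 2 rose (median -0.62), among them the single-stranded DNA-binding protein gene Ssbp1 at -3.58, Polg2 at -2.07, Tfb2m at 0.80 and Mterf1a at 0.37. Of 10 measured mitochondrial aminoacyl-tRNA synthetase genes, 7 fell and 0 rose (median -0.83), with Rars2 at -3.27 and Tars2 at -1.79. The rises in these lists are those of the deposited scale, on which 10.5% of all genes were called higher.

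The labelled cell type was checked against its markers. All 10 oocyte markers had a mean over the 6 arrays above that of the median probe set, and their summed linear values were 26581 to 27298 in MII oocytes, against 33583 to 34890 in GV oocytes. The zona pellucida genes Zp2 (-4.26), Zp3 (-2.76) and Zp1 (-1.26) and the germ cell RNA helicase gene Ddx4 (-1.01) were called lower, Bmp15 (0.69), a growth factor gene of the oocyte, was called higher, and the other 5 were not called. Of 14 granulosa and cumulus cell markers, 8 were measured, 2 of them above that median, 0 at a value of 0, and none was called higher. Inhba, Nr5a2 and Fshr were called lower, and the summed linear values of the 8 were 239 to 312 in MII oocytes, against 399 to 472 in GV oocytes. The other 5 were not called, with Ptx3 (0.23) and Has2 (0.30) higher in MII oocytes and Foxl2 (-0.26), Kitl (-0.15) and Ptgs2 (-0.38) lower. The summed residual signal moved in the same direction as most members, though not every marker did. Its part in the members' differences was not tested. Of the theca and blood markers 1 was measured, Star, and it was not called.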

How the data were processed

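The deposited values are log2 expression values of 21702 probe sets, one array per sample, made by the authors with RMA and the R package affy, per the submitters' processing notes, which give no version or settings. Each of the 6 arrays held the same 7077 distinct values. Of the probe sets, 56 control features were left out and 21646 were tested without a filter on dim signals. A linear model with stage as its sole term was fitted to every probe set in limma 3.58.1 (R 4.3.3), with moderated variances and 2-sided tests. The p-values were adjusted by the Benjamini-Hochberg method over the 21646 probe sets, and calls were made at an adjusted p under 0.05. Symbols came from the array annotation, and chromosomes and promoters from RefSeq tables. A gene was represented by its probe set with the highest mean over the 6 arrays among those with 1 symbol. GV values enter that mean, so the choice can favour a probe set that fell, in members and in all genes.

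Named were members with a probe set called higher, the 8 largest falls without overlap between stages, the 4 smallest differences, Mrps18a, Mrps18b and Mrps18c, and in each companion list up to 2 rises and 2 falls. Names outside this rule were chosen after values were seen or stand in ordered lists. Members and lists were chosen with earlier results of these data known, so no test was made over them. The design text calls the replicates biological. Alternatives covered the scale between arrays, the filter, the variance model, each array left out, probe set choice and a replicate block.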

Additional observations from a re-analysis of the deposited data

How the results depend on the processing

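As deposited, 7376 probe sets were lower and 2358 higher. On the 4 other scales the counts were 4306 and 12016 with array medians equal, 4794 and 7538 after quantile normalization, 104 higher with hybridization controls equal, and 18380 and 65 with poly-A controls equal. In that order, higher member probe sets numbered 30, 21, 0 and 0, higher member genes 8, 8, 0 and 0, and higher large-subunit genes 7, 7, 0 and 0, while higher small-subunit genes numbered 1 on each of the first pair of scales. The median difference in that order was -0.89, -0.91, -1.92 and -2.38 for the large and -1.12, -1.29, -2.14 and -2.61 for the small subunit. Mrpl38 was at 0.68 and 0.22 with hybridization and poly-A controls equal, and Mrpl40 at 0.16 and -0.31, none of them called. With the same controls Mrps14 was at -0.40 and -0.86, Mrpl3 at -0.35 and -0.82, Mrpl45 at -0.30 and -0.77, and Mrpl13 at -0.21 and -0.68. With hybridization controls equal and without GV array 1, a fit added after the data were seen, 15697 probe sets were lower and 190 higher, with 0 members higher. The medians were then -2.18 for the large and -2.31 for the small subunit, with Mrpl38 at 0.39 and Mrpl40 at -0.059 (both not called), Mrps14 at -0.83, Mrpl3 at -0.83, Mrpl45 at -0.36 and Mrpl13 at -0.45. Among probe sets above the median signal 4438 were lower, and the small-subunit median was -2.03. Without moderation 1279 probe sets were higher, with 1 member, and Mrpl40 (0.57) had an adjusted p of 0.056. Without probe sets of types _s_at, _x_at and _a_at, 1 member of the large subunit was higher, the medians were -1.19 for the large and -1.41 for the small subunit, and Mrpl51 was at -0.28 and not called. With the mean over a gene's probe sets Mrps14 was at -0.60 and Mrpl13 at -0.64. Leaving out each array gave 1547 (without GV array 2) to 2127 higher probe sets, 1 (without MII array 2 or 3) to 4 (without GV array 1) higher member probe sets, 1 to 3 higher member and large-subunit genes, and Mrpl40 between 0.50 and 0.70. Over the same fits Mrps14 lay between -0.14 and 0.19, Mrpl3 between -0.14 and 0.22 and Mrpl45 between -0.19 and 0.33. Replicate numbers did not pair the arrays (deviations of same-numbered arrays correlated at 0.03 to 0.09), and the first array of each stage has no number in its title. Differently numbered arrays correlated at -0.28 to 0.29. The positive ones were MII 3 with GV 2 (0.29), MII 1 with GV 3 (0.18) and MII 2 with GV 1 (0.17), and the rest were negative. A pairing outside the numbers was not tested. A replicate block on the arrays numbered 2 and 3 gave 61 lower and 3 higher member genes, 4 higher member probe sets and -0.13 for Mrpl3, against 62, 3, 4 and -0.13 on the same arrays without the block, a fit added after the data were seen. The cause of these changes was not tested, beyond the shifts that the scales impose and the smaller numbers of probe sets or arrays.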
